A study of Sus scrofa with 4 samples.

Results

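A set of 9 genes of alcohol, aldehyde and retinoid metabolism was followed through the differentiation of porcine subcutaneous preadipocytes. They are the alcohol dehydrogenases ADH1C and ADH5, the aldehyde dehydrogenases ALDH1A1, ALDH1A2, ALDH2 and ALDH3A2, the retinol dehydrogenase RDH10, the retinal reductase DHRS3 and the retinol receptor STRA6. They were picked by gene symbol from the 16192 protein-coding genes of the deposited files, and all 9 were listed there. The choice was made with the FPKM of these same 4 libraries in view, so that their levels and ratios are given as a description and carry no test. FPKM is the number of fragments of a gene scaled by the length of its transcript and by all fragments counted in the library.

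The cells were preadipocytes isolated from the subcutaneous fat of Chinese Erhualian piglets aged 5 days and grown to confluence. D0 was the confluent culture before induction. From D0 to D2 the medium held a cocktail of dexamethasone, 3-isobutyl-1-methylxanthine (IBMX) and insulin, from D2 to D4 it held insulin, and after D4 the cells were kept in growth medium without these agents until D8. For each stage, RNA of 3 piglets was mixed in equal parts before 1 library was made, so the spread between piglets was not measured and a stage cannot be told apart from its library.

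Alcohol dehydrogenases and retinol dehydrogenases oxidise alcohols, retinol (vitamin A) among them, to aldehydes, and aldehyde dehydrogenases oxidise aldehydes further to acids. In the retinoid branch, retinol is taken up by STRA6 from its carrier RBP4, oxidised to retinal by RDH10, returned to retinol by DHRS3, and turned into retinoic acid by the ALDH1A enzymes, after which retinoic acid acts through the nuclear receptors RAR and RXR. In fat tissue, which stores much retinol, retinoic acid is known to restrain the early steps of adipocyte differentiation, and retinal has been described as active in its own right. ALDH2 and ALDH3A2 serve other substrates, namely acetaldehyde and lipid peroxidation products in mitochondria and long-chain fatty aldehydes in the endoplasmic reticulum.

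The fragment totals behind FPKM were 75387428 (D0), 54987801 (D2), 74358922 (D4) and 54128151 (D8), and the number of reads behind each value was worked out from them. Intervals given with a value are 95% intervals from these reads and cover counting error only. The summed FPKM of 14 adipocyte markers was 129 (D0), 532 (D2), 1896 (D4) and 2200 (D8). FABP4 made up most of the sum at D8, with 853 FPKM at D4 and 1557 at D8, and 9 of the 14 markers were lower at D8 than at D4, among them PLIN1 (215 and 90.3), CEBPA (162 and 37.1) and PPARG (51.9 and 25.8). LEP, the gene of leptin, stayed under 1 FPKM throughout. Smooth muscle and pericyte markers summed to 6205, 664, 510 and 4810 FPKM in the same order, with ACTA2 and TAGLN making up most of each sum. ACTA2 (2907, 324, 225 and 2762) and TAGLN (2767, 297, 277 and 1987) set D0 and D8 apart from D2 and D4. The other markers did not all do so. DES (436, 37.7, 4.05 and 35.7) and CNN1 (94.3, 4.22, 2.39 and 24.2) were far lower at D8 than at D0, and MYH11 and RGS5 stayed under 1 FPKM. Mesenchymal stromal markers summed to 1130, 2272, 3034 and 2296 FPKM, with COL3A1 (491, 1286, 2058 and 1624) the largest part. LUM, DCN and PDGFRB also peaked at D4. THY1 was lower at each later stage (105, 101, 88.0 and 78.8). COL1A1 (258, 283, 193 and 211) and PDGFRA (75.8, 189, 149 and 60.8) peaked at D2 and were lower at D8 than at D0. Endothelial, leukocyte, mesothelial and skeletal muscle markers summed to at most 9.04 FPKM in any library, with CDH5 and VWF at 0 in 3 of 4 libraries each. Of 3 epithelial markers listed, EPCAM and CDH1 stayed under 1 FPKM and KRT5 ran from 44.4 FPKM at D0 to 275 at D8. In RNA from a whole culture, fewer cells of a type and less RNA per cell cannot be told apart, and the part of these markers in the levels below was not tested.

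The 9 genes fell into 4 kinds of profile. ADH1C was higher in each later library, ALDH1A1, ALDH2 and DHRS3 were at least 2-fold higher at D2 and D4 than at D0, ADH5, ALDH3A2 and RDH10 differed less than 2-fold from D0 at every stage, and the low genes STRA6 and ALDH1A2 had their most reads at D0 and a single read in all, respectively. A gene counted as reliably expressed when 3 or more of the 4 libraries reached 1 FPKM, a criterion that 9191 protein-coding genes and 7 of these 9 met. ALDH1A2 and STRA6 did not. ADH1C, ALDH1A1 and DHRS3 were under 1 FPKM at D0 and met the criterion through the 3 later libraries, so a difference from D0 was built into their passing.

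**Figure D1:**
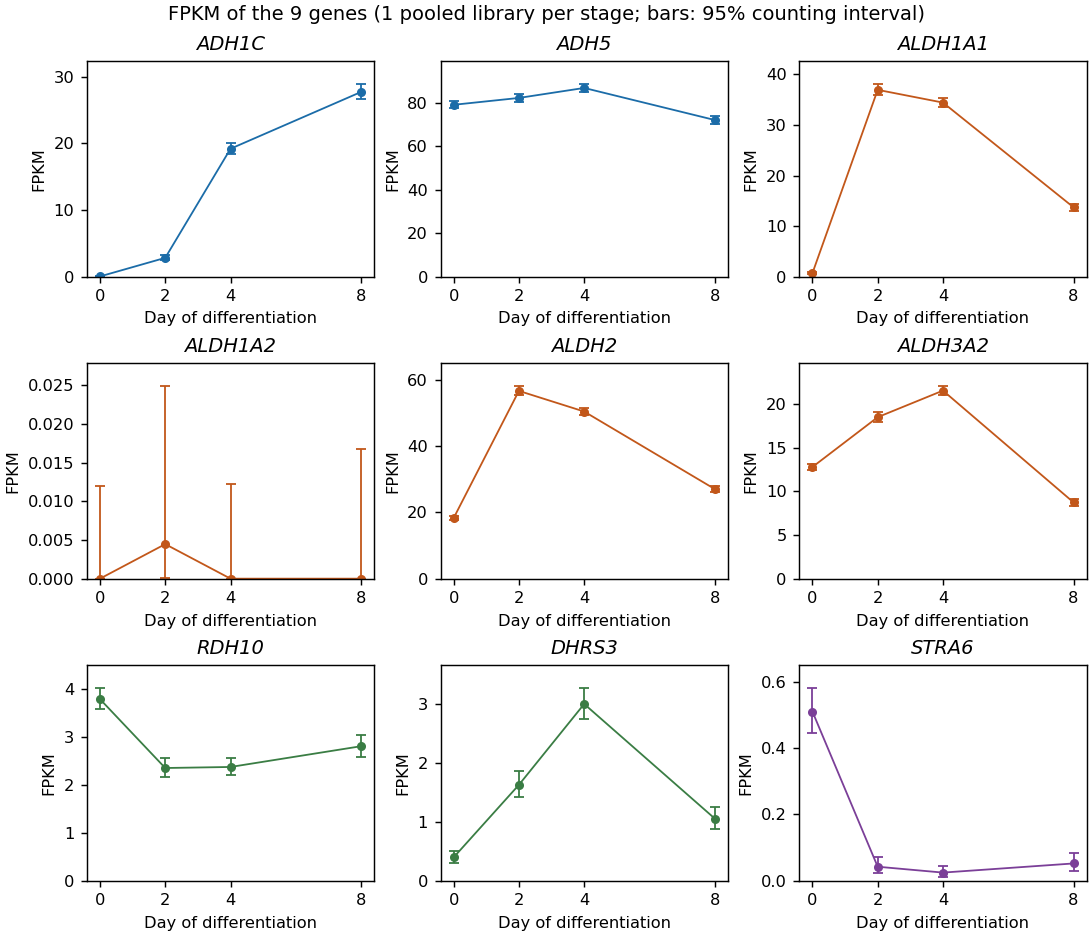
FPKM (y axis, a separate scale for each gene, starting at 0) of the 9 genes against the day of differentiation (x axis). Points are the single pooled library of each stage, bars are 95% counting intervals. ADH1C ended at its highest value of 27.7 FPKM, ALDH1A1 and ALDH2 peaked at D2, ALDH3A2 and DHRS3 peaked at D4, and STRA6 was highest at D0 with 0.511 FPKM.

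ADH1C encodes a class I alcohol dehydrogenase, which oxidises ethanol and also retinol. It lies on chromosome 8 from 121089355 to 121105010 on the plus strand of Sscrofa11.1, with an exonic length of 1505 bases behind its FPKM. It stood at 0.0264 FPKM (D0), 2.82 (D2), 19.2 (D4) and 27.7 (D8). These values rest on 3, 233, 2146 and 2256 reads, and the 4 counting intervals did not overlap. The D0 level was that of 3 reads, taken here as the limit of detection, and by D8 the gene had moved from the bottom of the reliably expressed protein-coding genes to percentile 80.8 of their FPKM.

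The ratio of FPKM of ADH1C to D0 was 106 (36.0 to 520) at D2, 725 (248 to 3519) at D4 and 1047 (358 to 5083) at D8. The wide intervals come with the 3 reads at D0. On the scale used for all counts here, log2(FPKM + 0.01), the same ratios were 6.28, 9.04 and 9.57, lower than the logarithm of the plain ratio because the added 0.01 weighs on a value as low as that at D0. Between successive stages it rose 6.81-fold (5.95 to 7.83) from D2 to D4 and was 1.44 times (1.36 to 1.53) as high at D8 as at D4. Of the 14 adipocyte markers, 5 were higher at D8 than at D4, as ADH1C was, and 9 were lower, and their part in the level of ADH1C was not tested.

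ADH5, the class III alcohol dehydrogenase, oxidises the glutathione adduct of formaldehyde and reduces S-nitrosoglutathione. Its gene is on the same strand of chromosome 8, from 121266794 to 121282313, 162 kb beyond the end of ADH1C. It was the highest of the 9 genes in every library, with 79.2 FPKM (D0), 82.3 (D2), 86.9 (D4) and 72.2 (D8), on 5922 to 9801 reads. Among the reliably expressed protein-coding genes it held percentiles 91.8 to 93.3. Its log2 ratios to D0 were 0.06 (0.01 to 0.10), 0.13 (0.09 to 0.18) and -0.13 (-0.18 to -0.09), and the signs at D4 and D8 depend on how the libraries are scaled.

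Set against each other, the summed FPKM of both alcohol dehydrogenases held a share of ADH1C of 0.0334% (D0), 3.31% (D2), 18.1% (D4) and 27.7% (D8). ADH5 was 2994 times (1024 to 14523) as high as ADH1C at D0 and 2.61 times as high at D8. ADH4, ADH6 and ADH7 were not among the genes listed. Because both genes are read from the same library, this shift within a stage does not depend on the scaling between libraries.

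**Figure D2:**
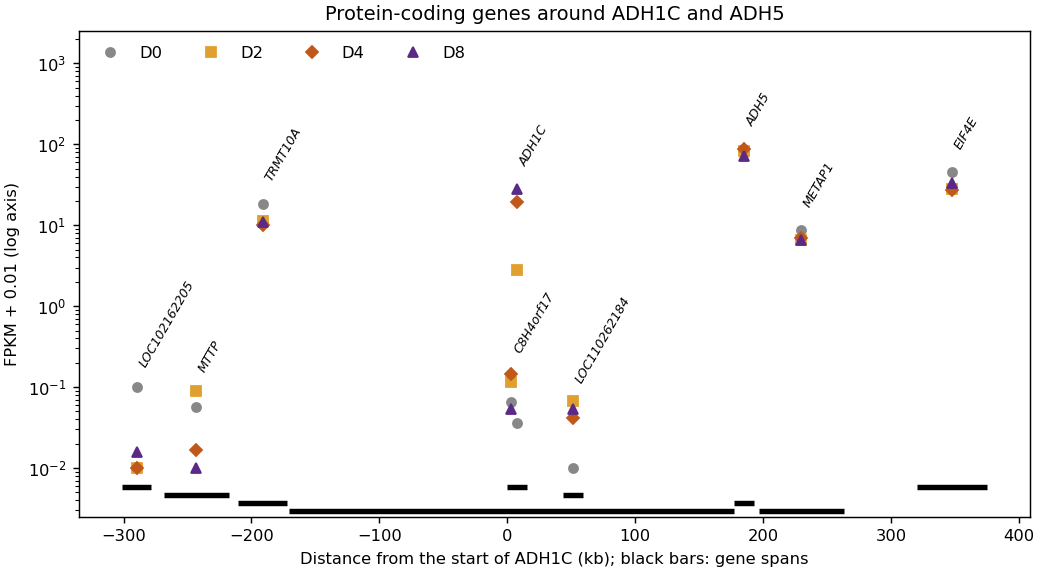
FPKM + 0.01 (log y axis) of the 9 protein-coding genes with a part within 300 kb of ADH1C or ADH5 against the distance of the gene's middle from the start of ADH1C in kb (x axis), 1 symbol per library, with black bars for the gene spans. The 4 symbols of ADH1C are spread from 0.0264 to 27.7 FPKM, while those of TRMT10A, ADH5, METAP1 and EIF4E lie close together.

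Around the pair, within 300 kb on either side, the files list 7 other protein-coding genes, and this window was chosen after the values were seen. Of the 5 reliably expressed genes in it, ADH1C was the only one past 2-fold in any comparison. Over all 9191 genes, 5.08% (D4 vs D2) to 19.2% (D4 vs D0) were past 2-fold in a single comparison. The share past 2-fold in any comparison, which is the larger one, was not counted. ADH1C is a picked member that passed the criterion through the later libraries, so nothing is read from this contrast. TRMT10A, a tRNA methyltransferase, had 18.1, 11.4, 10.2 and 11.0 FPKM at D0, D2, D4 and D8, METAP1, a methionine aminopeptidase, had 8.62, 6.54, 7.05 and 6.65, and EIF4E, the cap-binding translation factor, had 45.7, 27.8, 27.5 and 33.5. MTTP, LOC102162205, LOC110262184 and C8H4orf17 were each under 0.15 FPKM in every library. The annotated span of C8H4orf17 contains ADH1C on the opposite strand, and since the sources used here do not say whether counting used the strand of the reads, a share of reads exchanged between them cannot be told apart, although C8H4orf17 had at most 51 reads in a library.

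ALDH1A1, a cytosolic retinal dehydrogenase that makes retinoic acid, lies on the minus strand of chromosome 1 from 226163347 to 226217342. Its FPKM was 0.675 (D0), 36.9 (D2), 34.4 (D4) and 13.7 (D8), on 108, 4309, 5429 and 1574 reads. D0 was the low library by far, D2 and D4 were close to each other, and D8 lay between. The log2 ratio to D0 was 5.75 (5.50 to 6.06) at D2, 5.65 (5.40 to 5.96) at D4 and 4.32 (4.06 to 4.64) at D8, which are FPKM ratios of 54.7, 51.0 and 20.3. From D4 to D8 it fell by 1.33 on the log2 scale (-1.41 to -1.25).

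ALDH1A2, the retinal dehydrogenase of the embryo and of mesothelium, lies on the same chromosome at 113932722 to 114037059 on the plus strand, 112 Mb from ALDH1A1. It was listed at 0 in D0, D4 and D8, and its 0.00447 FPKM at D2 is a single read. A level of up to 0.0136 FPKM, the value of 3 reads in the least deep library, would not have been detectable, and no ratio is given.

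The remaining retinal dehydrogenase, ALDH1A3, which is not among the 9, had 6.02 FPKM (D0), 8.20 (D2), 17.3 (D4) and 3.75 (D8). The order of ALDH1A1 and ALDH1A3 therefore turned between D0 and D2. The ratio of ALDH1A1 to ALDH1A3 within a library was 0.112 (0.0915 to 0.136) at D0, 4.51 (4.26 to 4.77) at D2, 1.99 (1.91 to 2.07) at D4 and 3.66 at D8.

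ALDH2, the mitochondrial enzyme that clears acetaldehyde, is encoded on the minus strand of chromosome 14 from 39902317 to 39933113. It measured 18.2 FPKM (D0), 56.6 (D2), 50.4 (D4) and 27.0 (D8), on 2816 to 7667 reads, so that it too was high at D2 and D4, with no overlap of its 4 intervals. It rose at D2 by a log2 ratio of 1.63 (1.57 to 1.70) and was 1.46 (1.40 to 1.53) above D0 at D4. At D8 the log2 ratio to D0 was 0.57 (0.49 to 0.64), and that of D8 to D4 was -0.90 (-0.96 to -0.84), both under the 2-fold limit.

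ALDH3A2, the fatty aldehyde dehydrogenase of the endoplasmic reticulum, lies on the minus strand of chromosome 12 from 59936838 to 59953677. Its FPKM was 12.8 (D0), 18.5 (D2), 21.6 (D4) and 8.75 (D8), with D4 the highest and D8 the lowest library. The step from D4 to D8, a fall of 1.30 on the log2 scale (-1.37 to -1.23), was its only one past 2-fold. Its log2 ratios to D0 were 0.53, 0.75 and -0.55. ALDH2 was 1.43 times (1.36 to 1.49) as high as ALDH3A2 at D0 and 3.06 times (2.94 to 3.17) at D2.

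Together the 19 listed aldehyde dehydrogenase genes, AOX1 counted with them, summed to 238 FPKM (D0), 437 (D2), 550 (D4) and 293 (D8). The 4 members held 13.3%, 25.6%, 19.3% and 16.9% of these sums. ALDH1A1 stood at rank 15 among the 19 at D0 and at rank 5, 5 and 6 afterwards. The top of the order was ALDH1L2, a mitochondrial folate enzyme, at D0 with 66.4 FPKM and at D8 with 73.3, and ALDH9A1, which oxidises aminoaldehydes on the way to carnitine, at D2 with 152 and at D4 with 264.

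RDH10, which oxidises retinol to retinal, is on the minus strand of chromosome 4 from 62569877 to 62600981. It had 3.78 FPKM (D0), 2.35 (D2), 2.37 (D4) and 2.80 (D8), on 521 to 1151 reads. D0 was its highest library. No comparison reached 2-fold, the log2 ratios to D0 being -0.69 (-0.84 to -0.54), -0.67 (-0.81 to -0.54) and -0.43 (-0.58 to -0.29). D2 and D4 could not be told apart, with a log2 ratio of 0.01 (-0.15 to 0.18).

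DHRS3, the short-chain dehydrogenase that turns retinal back into retinol, is on the minus strand of chromosome 6 from 72556234 to 72599233. It ran the other way, with 0.397 FPKM (D0), 1.63 (D2), 3.01 (D4) and 1.06 (D8). The reads behind these values were 71, 213, 531 and 136, and the 4 intervals did not overlap, with D0 the lowest library and D4 the highest. Its log2 ratio to D0 was 2.01 (1.65 to 2.45) at D2, 2.89 (2.56 to 3.30) at D4 and 1.39 (0.99 to 1.85) at D8, and from D4 to D8 its FPKM fell to 0.352 times (0.289 to 0.426) its value. The interval at D8 reaches just under 2-fold.

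RDH10 and DHRS3 catalyse opposite steps between retinol and retinal, and their order turned. The FPKM ratio of RDH10 to DHRS3 was 9.54 (7.50 to 12.3) at D0, 1.44 (1.23 to 1.70) at D2, 0.788 (0.703 to 0.883) at D4 and 2.65 (2.20 to 3.21) at D8. D4 was the only library in which DHRS3 was the higher of the pair.

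**Figure D3:**
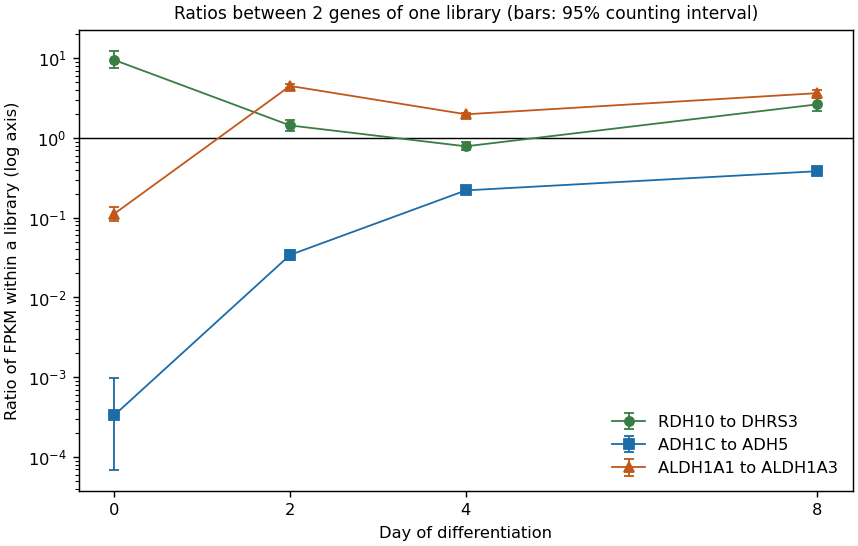
Ratio of the FPKM of a pair of genes within the same library (log y axis) against the day of differentiation (x axis), for RDH10 to DHRS3, ADH1C to ADH5 and ALDH1A1 to ALDH1A3, with 95% counting intervals as bars and a line at 1. RDH10 to DHRS3 crosses 1 at D4 only, ALDH1A1 to ALDH1A3 crosses it between D0 and D2, and ADH1C to ADH5 stays under 1 throughout.

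STRA6, the membrane receptor that takes retinol from RBP4, is on the plus strand of chromosome 7 from 59317930 to 59347274. It was under 1 FPKM in every library, with 0.511 at D0 (232 reads), 0.0423 at D2 (14 reads), 0.0246 at D4 (11 reads) and 0.0521 at D8 (17 reads). D0 stood apart, and the intervals of the 3 later libraries overlapped. Of the smooth muscle and pericyte markers, ACTA2 and TAGLN were high at D0 and at D8, and DES and CNN1 were highest at D0. The part of these markers in the level of STRA6 was not tested. The FPKM at D0 was 12.1 times (7.06 to 22.5) that at D2, 20.8 times (11.4 to 42.3) that at D4 and 9.80 times (5.99 to 17.1) that at D8. RBP4, its carrier, had 0.162, 0.527, 0.987 and 0.535 FPKM at D0, D2, D4 and D8 and was also not reliably expressed.

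Over the 7 reliably expressed members, 4 were at least 2-fold higher at D2 than at D0 (ADH1C, ALDH1A1, ALDH2 and DHRS3) and none was lower, where 6.67% of the 9191 genes were higher and 10.1% lower. At D4 the same 4 genes were higher than at D0 and none was lower (background 10.4% higher, 8.81% lower). At D8, ADH1C, ALDH1A1 and DHRS3 were higher than at D0 and none was lower (background 3.6% higher, 3.68% lower). Since the members were picked on these values, nothing is read from these counts.

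Between successive stages, ADH1C alone was higher at D4 than at D2 and none was lower (background 4.24% higher, 0.838% lower). ALDH1A1, ALDH3A2 and DHRS3 were lower at D8 than at D4 and none was higher (background 10.1% lower, 4.43% higher). The median log2 ratio of the 7 genes was 1.63 (D2 vs D0), 0.08 (D4 vs D2), -0.90 (D8 vs D4), 1.46 (D4 vs D0) and 0.57 (D8 vs D0). Over all 9191 genes the medians were -0.03, 0.09, -0.21, 0.06 and -0.18, so that ratios of D8 sit on a general shift of about that size. The members were picked on these values, and ADH1C, ALDH1A1 and DHRS3 passed the criterion through the later libraries. Nothing is read from the counts and medians of the 7 genes.

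**Figure D4:**
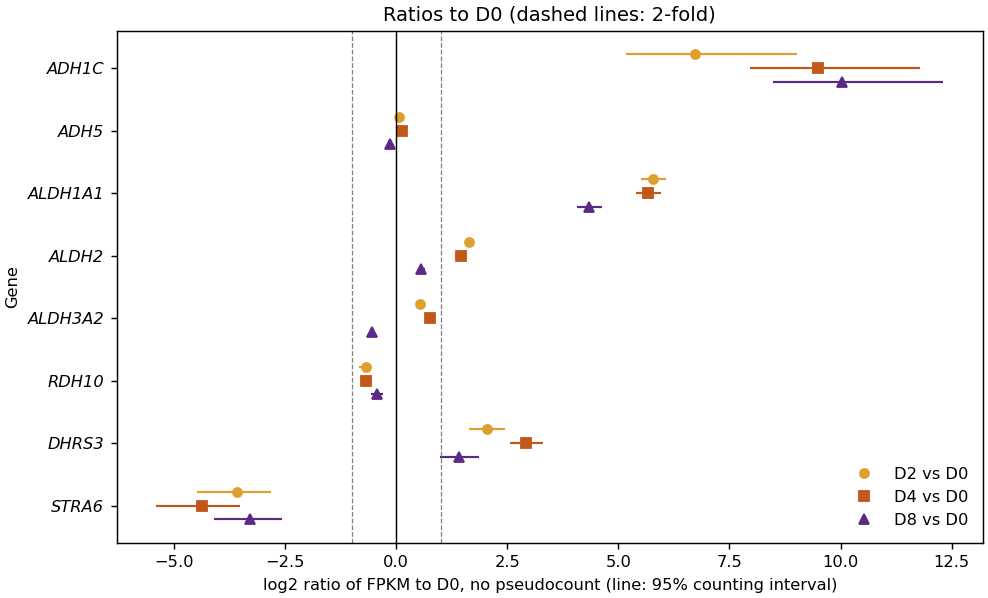
log2 ratio of FPKM to D0, without an added constant (x axis), for the 8 genes with reads at D0 (y axis), with symbols for D2, D4 and D8, lines for 95% counting intervals and dashed lines at 2-fold in each direction. ADH1C, ALDH1A1 and DHRS3 lie to the right of the 2-fold line at all 3 stages (the DHRS3 interval at D8 touches it), STRA6 lies to the left, and ADH5, ALDH3A2 and RDH10 stay between the lines.

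The order of the 9 genes by FPKM also moved. At D0 it ran ADH5, ALDH2, ALDH3A2, RDH10, ALDH1A1, STRA6, DHRS3, ADH1C and ALDH1A2, with the intervals of ALDH1A1 and STRA6, of STRA6 and DHRS3 and of ADH1C and ALDH1A2 overlapping. At D2 it was ADH5, ALDH2, ALDH1A1, ALDH3A2, ADH1C, RDH10, DHRS3, STRA6 and ALDH1A2, with overlap between ADH1C and RDH10 and between STRA6 and ALDH1A2. At D4 it was ADH5, ALDH2, ALDH1A1, ALDH3A2, ADH1C, DHRS3, RDH10, STRA6 and ALDH1A2. At D8 ADH1C had passed ALDH1A1 and ALDH3A2 and could not be told apart from ALDH2, and ADH5 still led.

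To place the members among their pathway, 78 genes were listed by function, 63 of which were in the files and 42 reliably expressed, the 7 members included. Of these 42, 11 were at least 2-fold higher and 5 lower at D2 than at D0, 15 higher and 3 lower at D4, and 10 higher and 4 lower at D8. From D2 to D4, 7 were higher and none lower (3 higher and 1 lower with control gene scaling), and from D4 to D8, 2 were higher and 13 lower. Past 2-fold in either direction were 38.1% of the 42 at D2, 42.9% at D4 and 33.3% at D8 against D0, where 16.8%, 19.2% and 7.28% of all 9191 genes were. The shares were 16.7% for D4 vs D2 and 35.7% for D8 vs D4, beside 5.08% and 14.5% of all genes. The whole list was written with earlier results of these data known, 7 of the 42 are the members picked on these values, and 5 of the 42 were under 1 FPKM at D0 and passed through the later libraries. Nothing particular to the list is read from these shares. The median log2 ratios of the 42 were 0.22 at D2, 0.64 at D4 and 0.14 at D8 against D0, 0.32 for D4 vs D2 and -0.54 for D8 vs D4, to be set beside the medians of all genes given above.

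Of 15 reliably expressed aldehyde dehydrogenases, 5 were higher and 2 lower at D2 than at D0, 7 higher and none lower at D4, and 7 were lower and none higher at D8 than at D4. Over all genes, 6.67% were higher and 10.1% lower at D2, and 10.4% and 8.81% at D4. From D4 to D8, 10.1% were lower and 4.43% higher. Of the 15, 3 are members picked on these values. ALDH1A1 was under 1 FPKM at D0 and ALDH5A1 at D8, so each passed the criterion through its other libraries. ALDH9A1 went from 34.5 FPKM at D0 to 152, 264 and 65.3 at D2, D4 and D8. AOX1, an aldehyde oxidase that can also use retinal, went from 2.90 to 9.62, 14.3 and 4.23 FPKM. ALDH6A1, of valine breakdown, went from 2.13 to 5.17, 7.71 and 3.40, and ALDH5A1, of GABA breakdown, from 1.22 to 1.76, 2.21 and 0.453.

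In the list of retinol dehydrogenases and retinal reductases, 3 of 9 reliably expressed genes were higher at D2 than at D0, 3 at D4 and 4 at D8. None was lower at any of these stages. Of all genes, 6.67%, 10.4% and 3.6% were higher and 10.1%, 8.81% and 3.68% were lower. DHRS3, a picked member, and RDH16 were under 1 FPKM at D0 and passed the criterion through the later libraries, so their difference from D0 was built in. RDH16, a microsomal retinol dehydrogenase, had 0.0908 FPKM at D0 (11 reads), 1.55 at D2, 6.95 at D4 and 3.18 at D8. It stood under RDH10 at D0 and above it at D4, with an FPKM ratio of RDH16 to RDH10 of 0.0240 (0.0119 to 0.0431) at D0 and 2.93 (2.65 to 3.24) at D4, while at D8 it was 1.14 (0.982 to 1.31). RETSAT, which saturates retinol, went from 11.3 FPKM to 26.5, 60.1 and 34.5 over the 4 stages, and DHRS4, an NADPH-dependent retinal reductase, from 68.5 to 94.3, 129 and 148.

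Among the alcohol dehydrogenases and related reductases, 5 genes were reliably expressed, with ADH1C and ADH5 among them. ADH1C was the only one past 2-fold from D0 at D2 and D4, and SORD, sorbitol dehydrogenase, joined it at D8. These are shares of 20%, 20% and 40%, beside 16.8%, 19.2% and 7.28% of all genes. ADH1C is a picked member that passed the criterion through the later libraries, so its difference from D0 was built in. SORD had 8.86 FPKM (D0), 9.10 (D2), 14.7 (D4) and 21.3 (D8).

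Carriers of retinoids moved in both directions. Of 6 reliably expressed genes for uptake, binding, storage and breakdown, 2 were higher and 2 lower at D2 than at D0, 3 higher and 1 lower at D4, and 3 higher and none lower at D8. Past 2-fold in either direction were 16.8%, 19.2% and 7.28% of all genes. CRABP2, which hands retinoic acid to RAR, fell from 32.8 FPKM at D0 to 1.09 at D2 and 1.11 at D4 and stood at 29.9 at D8. FABP5, a fatty acid binding protein that also carries retinoic acid, went from 63.1 to 141, 589 and 555. CRABP1, another carrier of retinoic acid, had 0.502, 1.68, 3.43 and 1.05 FPKM, and passed the criterion through the later libraries.

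CRABP2 was high in the D0 and D8 libraries, the ones in which the smooth muscle markers ACTA2 and TAGLN were also high. DES, of the same marker list, was high at D0 only. A link between CRABP2 and these markers was not tested. CYP26A1, which breaks retinoic acid down and is among the best known responders to it, had 1 read at D0 and was listed at 0 in the other libraries.

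Of the nuclear receptors, RXRA had 1.41 FPKM (D0), 2.47 (D2), 4.36 (D4) and 1.22 (D8), past 2-fold at D4 against D0. RARA and RXRB did not reach 2-fold from D0, and RARB stayed under 1 FPKM. Of 7 reliably expressed genes known to respond to retinoic acid, DHRS3 was the one higher at D2 than at D0, and 3 were lower, CRABP2 and RAI14 among them (all genes: 6.67% higher, 10.1% lower). DHRS3 is a picked member that passed the criterion through the later libraries. RAI14 had 42.1, 8.36, 10.3 and 18.9 FPKM. At D8, 2 of the 7 were higher than at D0, DHRS3 among them, and 3 were lower (RARRES1, RARRES2 and RAI14), beside 3.6% and 3.68% of all genes. RARRES1 had 5.48, 3.70, 4.12 and 1.35 FPKM and RARRES2, which encodes chemerin, had 18.2, 11.3, 6.74 and 8.47.

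**Figure D5:**
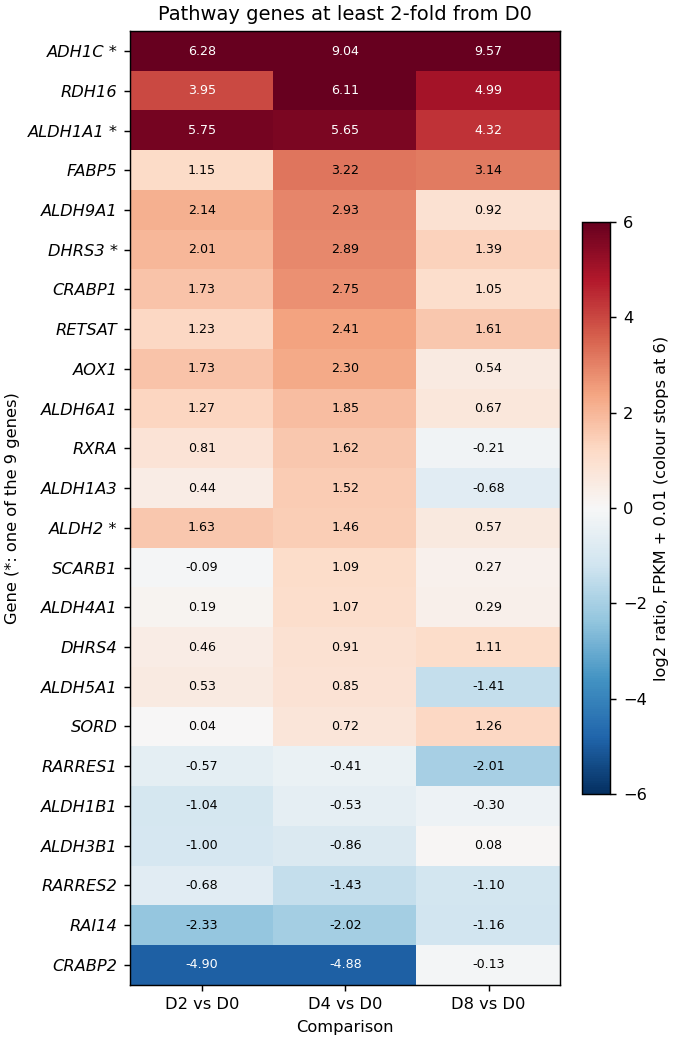
log2 ratios of FPKM + 0.01 against D0 at D2, D4 and D8 (columns) for reliably expressed pathway genes at least 2-fold from D0 in one of them (rows, ordered by the ratio at D4, the 9 members marked with an asterisk where they appear), with red for higher and blue for lower. ADH1C, RDH16 and ALDH1A1 have the darkest red cells, and CRABP2 is dark blue at D2 and D4 and pale at D8.

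For each member, the 3 reliably expressed protein-coding genes with the nearest profile over the 4 libraries were found by the Euclidean distance between log2(FPKM + 0.01) profiles, each centred on its own mean. ADH1C had no gene within a distance of 0.5, the nearest being LOC110259135 at 0.98, DGAT2 at 1.03 and THRSP at 1.83. ALDH1A1 had none either, with SPON1 at 0.63, SULT2A1 at 0.78 and S100A8 at 0.87.

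DHRS3 had 27 genes within 0.5, led by NFIB at 0.18, TBC1D4 at 0.21 and PNPLA2 at 0.25. ALDH2 had 184, led by ATP6AP1L at 0.10 and EFNA1 and ETFRF1 at 0.12. The flatter profiles had many: 875 genes for ALDH3A2 (NSMF, CNNM3 and DGKQ the nearest), 2282 for RDH10 (FIG4, NELFE and JMJD6) and 4349 for ADH5 (NOL11 and DCAF1 among the nearest). STRA6 had none within 0.5 among the reliably expressed genes, to which it does not itself belong. Its nearest were CLDN1 at 0.80, ZDHHC2 at 0.86 and FLNC at 0.93. A profile of 4 libraries is short, and the names change with the measure of likeness and with the filter on low values.

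The files also list circRNAs, RNA circles joined at a back-splice junction, in SRPBM (junction reads scaled by all mapped reads), and lncRNAs in FPKM. Among the 9 genes, 1 held a circRNA (background 31.9% of the reliably expressed protein-coding genes). It was ssc_circ_0005961 within ALDH3A2, at 59950644 to 59951606 of chromosome 12 on the minus strand, with 4 junction reads at D2 (29.1 SRPBM, 1.09 to 10.2 reads) and 0 in the other libraries, where 3 reads would amount to 17.8 to 25.2 SRPBM. The difference between stages was not detectable at this depth.

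The lncRNA MSTRG.106543, assembled by the study, lies inside ALDH3A2 on the opposite strand (59937299 to 59938039). It had 1.65 FPKM (D0), 0.0442 (D2), 0.131 (D4) and 0.270 (D8), on 51, 1, 4 and 6 reads. Most of its reads were thus in D0, where ALDH3A2 itself had 12.8 FPKM. Its log2 ratio of D2 to D0 was -4.93, with a counting interval of -10.55 to -2.67, and without known use of strand in counting its reads cannot be told apart from those of ALDH3A2.

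Other lncRNAs with an end within 50 kb of a member were low. Near ALDH3A2, LOC110256118 had 0.152 to 0.197 FPKM, LOC102157481 had 0.181 to 0.851 and MSTRG.106487 had 5 reads at D0 and none later. Near ALDH1A1, LOC106509189 had 4 reads, all at D4, and LOC110255694 had 2 reads, all at D2. None of them was reliably expressed.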

How the data were processed

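RNA of 4 differentiation stages (D0, D2, D4 and D8; 1 library each from 3 pooled piglets) was sequenced by the authors after rRNA depletion with a directional kit. The authors aligned reads to the pig genome Sscrofa11.1 with HISAT2 2.0.5 and deposited FPKM for 22944 genes. For 8623 circRNAs, called with BWA-MEM and CIRI, they deposited SRPBM, back-splice junction reads scaled by all mapped reads, in the same column. The counter, its strand setting and its handling of reads that map to several places are not given in the sources used here. The authors' tests of 2 libraries were not used.

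Files were read with pandas 2.3.3 under Python 3.11.15 (numpy 2.4.6, scipy 1.17.1, matplotlib 3.10.9). Library totals were computed from the deposited FPKM of tRNA and miRNA genes, for which 93.4% to 94.9% of values above 0 came out as whole reads (tolerance 0.001). The length of each gene was the shortest in whole bases that gave whole reads in the 4 libraries, so read numbers could be whole fractions of the true ones. Of 22944 genes, 20259 were paired with RefSeq by symbol, start and end, the 9 genes of interest among them.

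With 1 library per stage no test was made and no p-value is given. Ratios were taken on log2(FPKM + 0.01) for 5 comparisons and counted past 2-fold among reliably expressed genes. The added 0.01 understates ratios of low genes. Intervals of ratios are exact conditional binomial (Clopper-Pearson) and those of levels exact Poisson, at 95%, and 3 reads were the detection limit. The 9 genes, the pathway lists and the markers were chosen with earlier results of these data known. Named were the 9 genes, the 20 pathway genes with the largest log2 ratio to D0 of the 25 past 2-fold, the 3 nearest profiles per gene, and every circRNA or lncRNA at a gene of the 9 (within 50 kb for lncRNAs). ALDH1L2, DHRS4, RBP4, CYP26A1, the receptors other than RXRA and the genes around ADH1C were named beside a member's values, after these had been seen. Some genes that this rule would name are not reported here. Alternatives were 3 other scalings, pseudocounts of 0.1 and 1, ratios of 1.5 and 3, no filter on low values, correlation in place of distance, and the library totals that accompany the study. Code for ratios and intervals was tested on simulated data.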

Additional observations from a re-analysis of the deposited data

Results flagged for a closer look

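Some signals at ALDH3A2 lay outside the levels of the 9 genes and above the limit set by a count of 0. The circRNA ssc_circ_0005961 inside ALDH3A2 had 4 junction reads at D2. The antisense lncRNA MSTRG.106543 had 51 reads at D0, 4 at D4 and 6 at D8. The sources used here do not give the strand setting of the counting.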

How the results depend on the processing

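No paired analysis was possible because each stage has 1 library. Of 45 ratios of the 9 genes (5 comparisons each), 18 were past 2-fold, and the same number stayed past it under each of the 3 other scalings and with a pseudocount of 0.1. With a pseudocount of 1, 12 did. DHRS3 then had log2 ratios of 0.91 (D2 vs D0), -0.96 (D8 vs D4) and 0.56 (D8 vs D0). STRA6 had -0.54, -0.56 and -0.52 at D2, D4 and D8 against D0, and ADH1C had 1.89, 4.30 and 4.81. No called ratio changed sign. The 18 include the ratios of STRA6 to D0, although STRA6 was not reliably expressed. The 45 include those of ALDH1A2, which had a single read in all. At D8 vs D4 the log2 ratio of STRA6 went from 0.85 to 1.01, past 2-fold, by median-of-ratios scaling. Among ratios under 2-fold, ADH5 turned to -0.01 by median-of-ratios scaling and -0.19 by control genes at D4 vs D2, to -0.03 by control genes at D4 vs D0 and to 0.02 by median-of-ratios scaling at D8 vs D0. At D4 vs D2, ALDH3A2 turned to -0.05 by control genes, and RDH10 was below 0 under all 3 scalings.

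Over the 7 reliably expressed genes of the 9, the count past 2-fold at D4 vs D2 was 1, and 2 at a ratio of 1.5. At D8 vs D4 it was 3, and 0 at a ratio of 3. For the pathway genes, the 16 past 2-fold at D2 vs D0 became 10 with a pseudocount of 1 and 29 without the filter on low values. The 7 at D4 vs D2 became 4 with control gene scaling (3 higher, 1 lower) and also 4 with a pseudocount of 1, 17 at a ratio of 1.5, 3 at a ratio of 3 and 15 without the filter. The 15 at D8 vs D4 became 24 at 1.5, 9 at 3 and 23 without the filter, the 18 at D4 vs D0 became 29 at 1.5 and 29 without the filter, and the 14 at D8 vs D0 became 6 at 3 and 27 without the filter.

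Scaling moved the share of higher genes among all called protein-coding genes by more than 10 points: from 30.5% to 52.0% (D8 vs D4) and from 49.5% to 66.1% (D8 vs D0) by median of ratios, and from 83.5% to 62.4% (D4 vs D2) and from 54.2% to 40.8% (D4 vs D0) by control genes. The cause was not tested. Read numbers were equal with the library totals of the study. By correlation, none of the 3 nearest profiles of the 7 reliably expressed genes was kept. Without the filter on low values, 3 were kept for RDH10, 2 for ADH1C and ADH5, and 1 for ALDH1A1, ALDH2, ALDH3A2 and DHRS3. For STRA6, 0 were kept. Depth limits STRA6 after D0, ADH1C at D0, ALDH1A2 and the features inside ALDH3A2. The spread between piglets and between library preparations was not measured.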
